A study of Mus musculus with 6 samples.

Results

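The receptors that guide lymphocytes between blood and tissue were examined in group 2 innate lymphoid cells (ILC2s) sorted from the lungs of neonatal mice. The genes were Ccr2, Ccr4, Ccr6, Ccr7, Ccr8, Ccr9, Cxcr4, Cxcr6 and S1pr1, found by gene symbol. Each of the 9 symbols had 1 entry among the 55394 genes of the SMART-seq tables. There were 6 libraries of 1000 sorted cells each, from wild-type C57BL/6 pups. In the Abx group (3 libraries) the pregnant dams drank a cocktail of ampicillin, metronidazole, neomycin and vancomycin from gestation day 10 to 14. In the control group (Con, 3 libraries) the pups came from dams that the study names control or PBS dams. The age of the pups in days and the number of pups behind each library are not given in the sources used here, and no source says that the libraries came from separate animals. The p-values therefore measure the spread between these libraries, which may be partly technical. Levels are FPKM, fragments scaled to exon length and to the mapped reads of the library, which allows genes to be compared within a library. The read depth behind these values is unknown. Between 8574 and 9203 genes reached 1 FPKM in the Con libraries and between 7074 and 8193 in the Abx libraries.

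Chemokine receptors are G protein-coupled receptors that steer cells up gradients of small secreted proteins, the chemokines. They couple to inhibitory G proteins, and arrestins and regulators of G protein signaling limit their activity. ILC2s are seeded into the lung around birth and then stay there as resident cells. Receptors for tissue-derived ligands, such as CCR8, CXCR6 and CCR4, are known from cells that reside in barrier tissues. CCR7, which reads the lymph node chemokines CCL19 and CCL21, and S1PR1, which reads sphingosine-1-phosphate in blood and lymph, are known for taking lymphocytes through lymph nodes and out of tissue. CXCR4 holds progenitors in bone marrow through CXCL12, and CCR9 serves homing to thymus and gut through CCL25.

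Neonatal lung ILC2s carried a receptor profile led by Ccr8 and Cxcr6. Ccr8 (ENSMUSG00000042262), the receptor for CCL1, was at 615, 775 and 909.9 FPKM in the first to last Con library versus 528, 739.5 and 592 FPKM in the Abx libraries, in the order of their numbers. Cxcr6 (ENSMUSG00000048521), the receptor for CXCL16, was at 809.7, 565 and 619.5 FPKM (Con) versus 417, 700.4 and 709 FPKM (Abx). All 6 libraries were thus high for both genes, and the groups overlapped. Among all genes Ccr8 ranked between 70 and 115 by level in the 6 libraries, and Cxcr6 between 75 and 150. Together they made up 89.4% to 94.1% of the summed FPKM of the 9 receptors. The ratio of Ccr8 to Cxcr6 ranged from 0.759 to 1.47 across libraries, so neither was the higher one throughout.

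**Figure D1:**
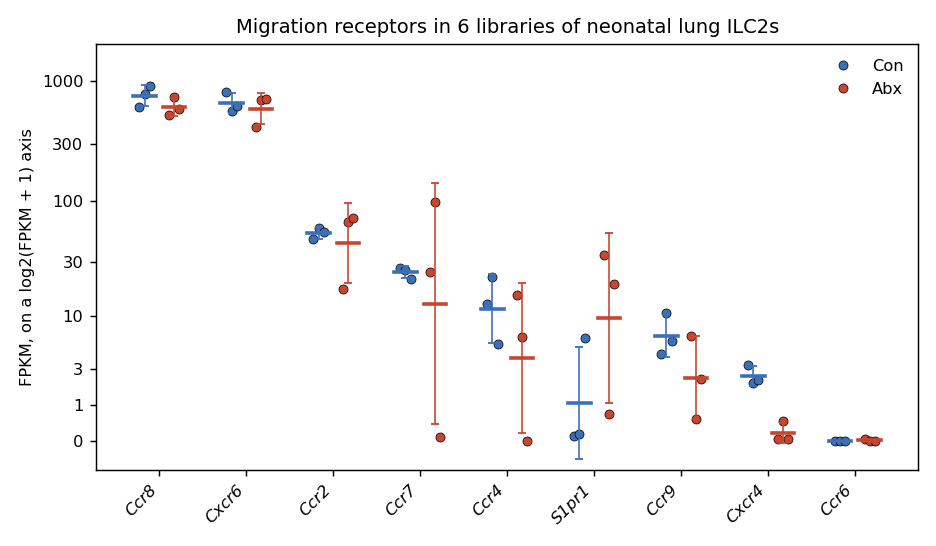
FPKM of the 9 receptors in each library, on a log2(FPKM + 1) axis, for Con (blue) and Abx (red); points are libraries, horizontal bars the mean and error bars the SD of log2(FPKM + 1), n = 3 per group. Ccr8 and Cxcr6 lie at 417 FPKM or more in all 6 libraries, Ccr6 lies at the bottom, and Cxcr4 alone separates the groups.

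The sequence before the start site is shown for these 2 leading receptors and for Cxcr4, the one receptor whose groups did not overlap. Each stretch is the last 250 bases before the RefSeq start on GRCm38, read on the strand of the gene. Capitals mark GATAA or its reverse complement, the core of the motif bound by GATA factors such as GATA3, which ILC2s require.
Ccr8, chr9:120091883-120092132, plus strand: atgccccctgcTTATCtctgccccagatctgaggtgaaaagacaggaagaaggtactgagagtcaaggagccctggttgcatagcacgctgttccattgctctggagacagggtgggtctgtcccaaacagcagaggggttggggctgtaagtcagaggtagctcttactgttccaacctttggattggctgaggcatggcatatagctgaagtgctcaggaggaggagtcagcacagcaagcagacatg
Cxcr6, chr9:123806227-123806476, plus strand: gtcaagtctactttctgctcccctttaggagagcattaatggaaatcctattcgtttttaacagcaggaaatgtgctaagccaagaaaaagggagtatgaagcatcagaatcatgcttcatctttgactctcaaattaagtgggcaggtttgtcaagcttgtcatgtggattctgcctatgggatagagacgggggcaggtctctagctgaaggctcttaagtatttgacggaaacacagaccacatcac
Cxcr4, chr1:128592300-128592549, minus strand: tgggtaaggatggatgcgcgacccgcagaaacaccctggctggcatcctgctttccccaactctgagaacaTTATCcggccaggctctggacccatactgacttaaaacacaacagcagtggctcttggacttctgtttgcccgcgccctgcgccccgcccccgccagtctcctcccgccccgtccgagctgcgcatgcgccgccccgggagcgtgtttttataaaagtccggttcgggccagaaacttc

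The match in Ccr8 begins 239 bases before the start and that in Cxcr4 179 bases before it, both on the opposite strand, while the Cxcr6 stretch holds none. The ends of the Ccr8 and Cxcr6 stretches lie past the start that GENCODE M21 gives, while the Cxcr4 stretch ends before it. Of all 32851 windows of this length 22.6% hold GATAA on either strand. AGGTCA, the half-site of ROR factors, was in none of these 3 stretches, against 14% of all windows. CACCC, a core bound by KLF factors, was in Ccr8 and Cxcr4 and in 52% of all windows. Promoter entries were matched for 7 of the 9 receptors, all but Ccr7 and S1pr1. GC content was 53.6% for Ccr8, 43.6% for Cxcr6 and 61.2% for Cxcr4, where the mean over all windows was 53.2%. These matches describe letters in a window and say nothing of binding.

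Ccr2, Ccr7 and Ccr4 formed a middle tier. Ccr2 (ENSMUSG00000049103), the receptor for CCL2 that takes cells out of bone marrow into inflamed tissue, was at 47.1, 58.9 and 54.3 FPKM (Con) versus 17.5, 66.0 and 71.0 FPKM (Abx). Abx library 1 was the lowest and the other two Abx libraries were the highest. Ccr7 (ENSMUSG00000037944) was even in Con, at 26.9, 25.9 and 21.6 FPKM. In Abx it was at 24.6, 96.7 and 0.08 FPKM, which were its highest and its lowest values over the 6 libraries. Ccr4 (ENSMUSG00000047898), the receptor for CCL17 and CCL22, was at 12.8, 22.4 and 5.39 FPKM (Con) versus 15.5, 6.39 and 0 FPKM (Abx). Abx library 3, in which Ccr4 was listed at 0, was also the one near 0 for Ccr7.

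S1pr1, Ccr9 and Cxcr4 were low or patchy, and Ccr6 was listed at or near 0. S1pr1 (ENSMUSG00000045092), the exit receptor, was at 0.1, 0.15 and 6.24 FPKM (Con) versus 34.3, 0.67 and 19.5 FPKM (Abx). Only Abx libraries 1 and 3 and Con library 3 reached 1 FPKM. Ccr9 (ENSMUSG00000029530) was at 4.32, 10.8 and 5.83 FPKM (Con) versus 6.59, 0.54 and 2.30 FPKM (Abx). Cxcr4 (ENSMUSG00000045382) was at 3.31, 2.07 and 2.21 FPKM (Con) versus 0.05, 0.46 and 0.04 FPKM (Abx). Every Abx library was below every Con library for Cxcr4. Ccr6 (ENSMUSG00000040899), the receptor for CCL20 and a marker of lymphoid tissue inducer cells, was listed at 0 in 5 libraries and at 0.04 FPKM in Abx library 1.

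By mean level over the 6 libraries the order was Ccr8, Cxcr6, Ccr2, Ccr7, Ccr4, S1pr1, Ccr9, Cxcr4 and Ccr6, with means of 693 FPKM for Ccr8 and 637 FPKM for Cxcr6, then 52.5 FPKM for Ccr2 and 32.6 FPKM for Ccr7. Ccr4 and S1pr1 averaged 10.4 and 10.2 FPKM, Ccr9 averaged 5.06 FPKM and Cxcr4 averaged 1.36 FPKM. The one step in this order where the ranges over libraries did not overlap lay between Cxcr6, with a lowest value of 417 FPKM, and Ccr2, with a highest value of 71.0 FPKM. All other neighbours overlapped, and Cxcr4 and Ccr6 met at 0.04 FPKM. Of the 9 receptors, 3 reached 1 FPKM in all 6 libraries (Ccr8, Cxcr6 and Ccr2), 3 in 5 libraries (Ccr7, Ccr4 and Ccr9) and 2 in 3 libraries (S1pr1 and Cxcr4). For Ccr4 and S1pr1 the order turned with 1 library left out, so these 2 were not separated.

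The difference of these receptors between Abx and Con was tested with limma on log2(FPKM + 1). The fit covered the 8718 genes that had at least 1 FPKM in at least 3 libraries. The groups also differed in the sex-linked genes Xist and Eif2s3y, so this contrast cannot tell antibiotic exposure from pup sex. Calls needed a difference of more than 2-fold together with a Benjamini-Hochberg adjusted p under 0.05. Of the 9 receptors 8 entered the test and Ccr6 did not. None of the 8 was called, where 0.0574% of all genes tested were, and the alternative settings called none either, apart from one that used the unadjusted p and called 1. At an unadjusted p under 0.05 there was 1 of the 8, Cxcr4, where 11% of all genes were. The fitted difference was below 0 for 7 receptors and above 0 for S1pr1. Of all 8718 genes tested, 4621 had a difference below 0. The median was -0.59 for the receptors and -0.06 over all genes tested. With 1 library left out, the sign could turn for Ccr2, Ccr7 and Cxcr6. Since the cells were pooled, fewer cells with a transcript and less transcript per cell cannot be told apart.

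**Figure D2:**
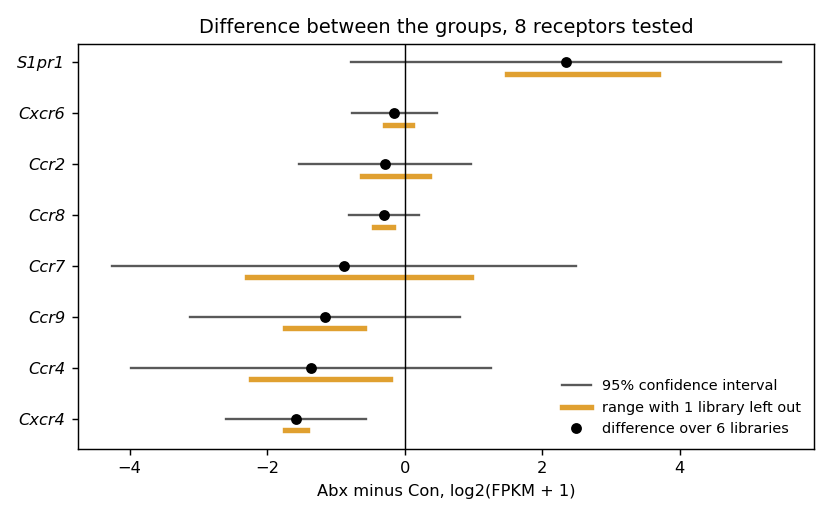
Fitted difference in log2(FPKM + 1), Abx minus Con, for the 8 receptors tested (points), with the 95% confidence interval of limma (grey) and the range of the difference when each library was left out in turn (orange). Only the interval of Cxcr4 lies off 0, and the orange ranges of Ccr2, Ccr7 and Cxcr6 cross 0.

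Cxcr4 averaged 2.53 ± 0.68 FPKM (Con) versus 0.18 ± 0.24 FPKM (Abx; SD, n = 3 each). On the log2(FPKM + 1) scale the difference was -1.58 (standard error 0.44, 95% confidence interval -2.60 to -0.56, limma adjusted p = 0.182). The scale understates changes of low genes, and the ratio of the 2 means was 13.8. All Abx values of Cxcr4 were under 1 FPKM and the read depth is unknown, so the size of this ratio is uncertain. An exact two-sided permutation test gave p = 0.1, the smallest that 3 libraries against 3 allow. Cxcr4 entered the test only through its 3 Con libraries, and a gene that passes in this way has to differ between the groups. It was the 1 of 8 receptors tested whose groups did not overlap with Abx lower, where 8.73% of all genes tested showed that pattern. For the opposite pattern the counts were 0 of 8 and 8.49%. The difference was -0.82 with quantile normalization and -4.47 with a pseudocount of 0.01.

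The 2 abundant receptors were measured with the tightest intervals. Ccr8 averaged 767 ± 148 FPKM (Con) versus 619.8 ± 109 FPKM (Abx; SD, n = 3 each). The difference was -0.30 (95% confidence interval -0.81 to 0.21, limma adjusted p = 0.696). For Cxcr6, with 665 ± 129 FPKM (Con) versus 609 ± 166 FPKM (Abx), it was -0.15 (95% confidence interval -0.77 to 0.46, limma adjusted p = 0.884). A change by a factor over 2 lay outside both intervals, while some smaller changes lay inside them.

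The intervals of the other 5 receptors were wide. Over all genes tested, too, the Abx libraries were less alike (Pearson's r of 0.655 to 0.69 between pairs) than the Con libraries (0.805 to 0.846). S1pr1 averaged 2.16 ± 3.53 FPKM (Con) versus 18.2 ± 16.9 FPKM (Abx; SD, n = 3 each), a difference of 2.35 (95% confidence interval -0.78 to 5.47, limma adjusted p = 0.602). The difference of Ccr4 was -1.36 (95% confidence interval -3.98 to 1.26, limma adjusted p = 0.728) and that of Ccr9 was -1.16 (95% confidence interval -3.12 to 0.81, limma adjusted p = 0.697). Ccr7 had the widest interval, -4.26 to 2.49 around -0.88 (limma adjusted p = 0.874). The mean FPKM of Ccr7 was nonetheless higher in Abx, at 40.5 against 24.8 FPKM in Con, since 1 Abx library was high and 1 close to 0. Ccr2 differed by -0.28 (95% confidence interval -1.53 to 0.97, limma adjusted p = 0.892). Exact permutation tests of these 5 genes gave p between 0.2 and 1. With 1 library left out, S1pr1 separated the groups upward without Con library 3 or without Abx library 2, Ccr8 downward without Con library 1 or without Abx library 2, and Ccr9 downward and Ccr2 upward without Abx library 1. Cxcr4 separated the groups downward with all 6 libraries, so leaving a library out could not change that. Without a library, 23.9% to 31.2% of all genes tested separated the groups in one direction or the other.

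Marker genes of other cell types also separated the groups. The sort kept CD45+ Lin- CD90.2+ CD25+ cells and left out those bearing CD3e, CD4, CD5, CD8a, B220, NK1.1 and other lineage markers. Of 12 ILC2 markers, 11 were at 1 FPKM or more in all libraries, among them Gata3, Rora, Il7r, Icos and Klrg1. Il1rl1, which encodes the IL-33 receptor, was the exception, at 0.06, 0.89 and 2.94 FPKM (Con) versus 0.03, 0.01 and 0.03 FPKM (Abx). The 12 ILC2 markers summed to 2835 to 3239 FPKM (Con) versus 2139 to 2705 FPKM (Abx). The summed FPKM of 12 T cell markers was 1351 to 1555 in Con and 2716 to 3031 in Abx, and that of 7 thymocyte markers 16.7 to 42.0 in Con and 201 to 249.9 in Abx. Most of the T cell sum was Trbc1 (208 to 387 FPKM in Con and 633 to 778 FPKM in Abx) and Trbc2 (874 to 958 and 1639 to 1803 FPKM). The groups overlapped for Cd3e, Cd247, Trac, Cd28, Cd5, Cd4 and Cd8a. Cd4 was listed at 0 in 5 libraries and Cd8a in 4. For 10 B cell markers the sum was 542 to 710.0 in Con and 1178 to 1439 in Abx, most of it Cd74, Ighm and Igkc. For 8 NK and ILC1 markers it was 5.78 to 45.6 in Con and 218 to 235 in Abx, almost all of it Gzma in Abx (215 to 224 FPKM). Gzmb was at 22.2, 6.54 and 5.78 FPKM (Con) versus 0.36, 0 and 20.03 FPKM (Abx), and Ncr1 and Klrk1 were listed at 0 in the Abx libraries and at up to 7.9 and 5.28 FPKM in the controls. Rag2, Il22, Il23r, Klrb1c, Tbx21, Prf1, Ly6g, Mpo, Elane and Camp were listed at 0 in all 6 libraries. The sums of markers of ILC3 and LTi cells (72.9 to 230 FPKM in the controls and 127 to 166 FPKM after antibiotics), myeloid cells (115 to 364 and 176 to 369 FPKM), neutrophils (0.47 to 16.2 and 0 to 75.3 FPKM) and structural lung cells (32.0 to 1162 and 69.8 to 148 FPKM) overlapped. In single genes, every Abx library was above every Con library for Cd3d, Cd3g, Trbc1, Trbc2 and Lat, for Ptcra, Dntt and Cd8b1, for Ms4a1, Ighm, Igkc and Cd74, and for Gzma and Sftpc. Every Abx library was below every Con library for Icos, Areg, Arg1, Cd79b and Mcpt8. No marker gene was called, and the smallest adjusted p was 0.0911 (limma). At an unadjusted p under 0.05, where 11% of all genes tested lay, there were 3 of 11 ILC2 markers tested, 3 of 9 T cell markers, 3 of 4 thymocyte markers, 3 of 8 B cell markers, 1 of 2 NK and ILC1 markers, 1 of 2 mast cell and basophil markers, 1 of 4 structural markers and 0 of the ILC3, myeloid and neutrophil markers. The sums of mast cell and basophil markers were 328 to 440.3 FPKM (Con) versus 185 to 295 FPKM (Abx). Ccr7, Ccr9, Ccr4, Cxcr4 and S1pr1 are also carried by T cells, B cells or thymocytes. The part of RNA from other cells in the values of all 9 receptors, Ccr8, Cxcr6 and Ccr2 included, was not tested. Xist was at 3.78 to 5.09 FPKM in Con and listed at 0 in Abx, and the Y-linked Eif2s3y was at 0.03 to 0.86 and 11.9 to 24.4 FPKM, so pup sex and antibiotic exposure cannot be told apart.

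The 9 receptors were set beside 25 other receptors of chemoattractants. Of these 34, 7 were at 1 FPKM or more in all libraries and 16 were under 1 FPKM in all of them. Ltb4r1, the high-affinity leukotriene B4 receptor, came next after Cxcr6 by mean level, with 497, 469 and 306 FPKM (Con) versus 177, 365 and 238 FPKM (Abx). It was followed by Ccrl2, an atypical receptor that binds chemerin, and, after Ccr2, by S1pr4 and Gpr183. S1pr4, a sphingosine-1-phosphate receptor of lymphocytes, was at 26.8 to 70.9 FPKM and was above S1pr1 in every library, whereas S1pr2 reached 1 FPKM in a single library, S1pr3 stayed at or under 0.04 FPKM and S1pr5 was listed at 0. Ptgdr2, which encodes the prostaglandin D2 receptor CRTH2 used to identify ILC2s, was listed at 0 in all 6 libraries, as were Ccr10, Ccr1l1, Cxcr1 and Cxcr2. Cxcr3, the receptor of type 1 lymphocytes, was at no more than 0.05 FPKM.

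**Figure D3:**
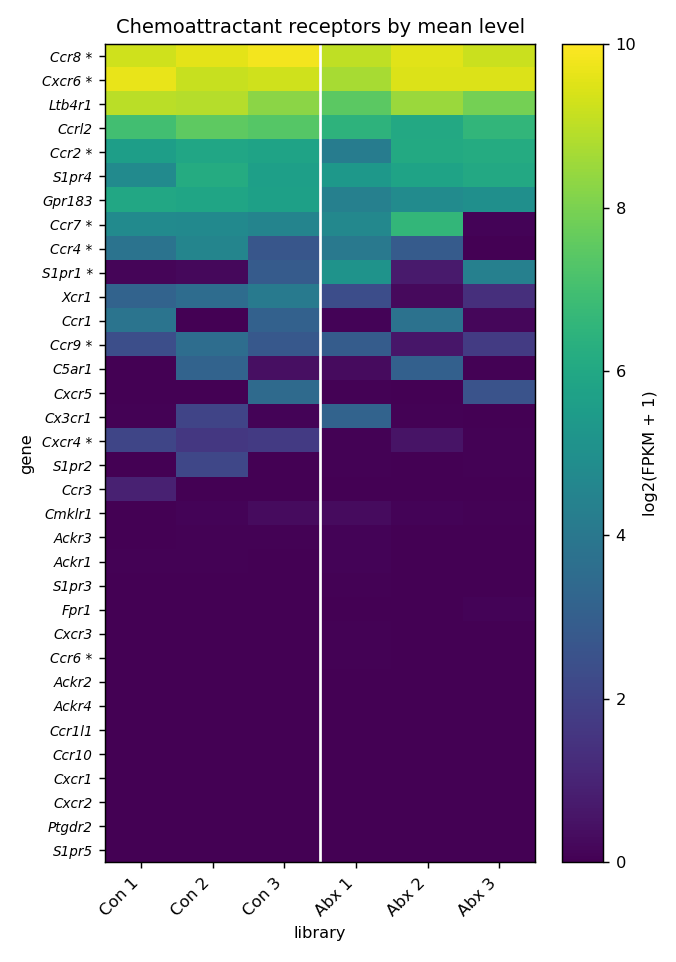
Level of 34 chemoattractant receptors as log2(FPKM + 1), genes ordered by mean over the 6 libraries, with the 9 migration receptors marked by an asterisk and a white line between Con and Abx. Ccr8 and Cxcr6 are the brightest rows, and 16 receptors stay under 1 FPKM in every library.

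Of the 25 further receptors 6 were tested, 0 were called and 3 had an unadjusted p under 0.05 (limma), all lower in Abx and with groups that did not overlap. Over all genes tested the shares were 11% at that p and 8.73% without overlap and Abx lower. The median difference of the 6 was -0.94. Gpr183, the oxysterol receptor that positions lymphocytes in tissue, was at 63.6, 57.3 and 50.4 FPKM (Con) versus 19.4, 27.7 and 30.6 FPKM (Abx). Its difference was -1.13 (standard error 0.33, limma adjusted p = 0.198). Ccrl2 was at 126, 182 and 164 FPKM (Con) versus 88.4, 64.9 and 95.5 FPKM (Abx), a difference of -0.92 (standard error 0.27, limma adjusted p = 0.199). Xcr1, the receptor for XCL1, was at 8.13, 10.4 and 16.3 FPKM (Con) versus 4.14, 0.19 and 1.52 FPKM (Abx), a difference of -2.29 (standard error 0.81, limma adjusted p = 0.313).

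Of the 9 receptors 5 lie on chromosome 9 of GRCm38 by GENCODE M21. Ccr4 lies from 114490316 to 114504916 and Ccr8 from 120092114 to 120094906. Ccr9 (123678439 to 123784330), Cxcr6 (123806475 to 123811760) and Ccr2 (124101950 to 124113557) lie close together, and the 7 receptor genes from Ccr9 to Ccr2 described here span 435119 bases. These 7 neighbours differed widely in level. Cxcr6 stood beside Ccr9 and beside Xcr1, whose highest value was 16.3 FPKM. Ccr2 stood beside Ccr3, which was listed at 0 in 5 libraries. Ccr1, further along, ranged from near 0 upward in both groups, with 13.2, 0.02 and 7.5 FPKM (Con) versus 0.06, 12.8 and 0.13 FPKM (Abx). The gene model of Ccr9 overlaps Lztfl1 on the opposite strand, at 6.02 to 14.5 FPKM. It also overlaps Gm10052, a processed pseudogene on the opposite strand at 5.67 to 12.5 FPKM in the controls and 13.2 to 38.8 FPKM after antibiotics, and Gm17200, a noncoding RNA on the same strand at 0.67 to 2.49 FPKM. The gene model of Cxcr6 overlaps Fyco1, also opposite, at 0.12 to 5.99 FPKM. The counting is not stated to use strand, so reads of overlapping genes may be shared. The other 4 receptors lie on chromosome 1 (Cxcr4, 128588199 to 128592293), chromosome 3 (S1pr1, 115710433 to 115715072), chromosome 11 (Ccr7, 99144196 to 99155077) and chromosome 17 (Ccr6, 8236043 to 8257141).

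**Figure D4:**
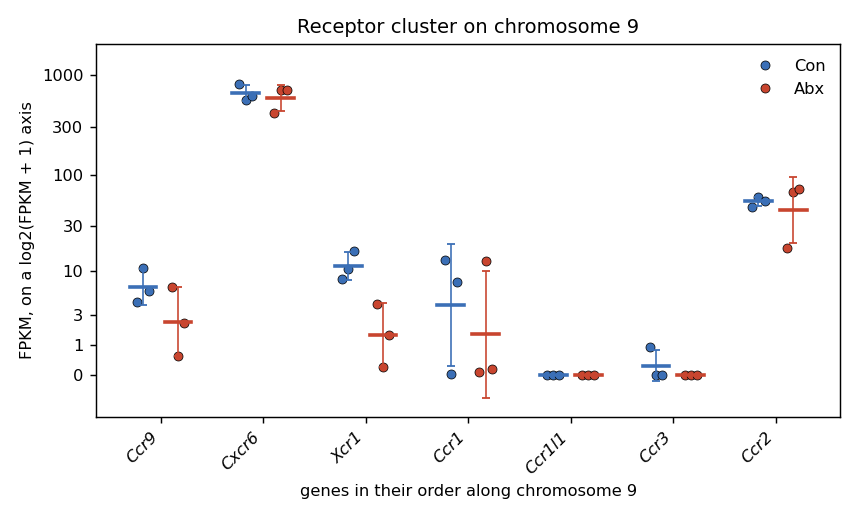
FPKM of 7 receptor genes of the chromosome 9 cluster, from Ccr9 to Ccr2, in their order along the chromosome, on a log2(FPKM + 1) axis; points are libraries of Con (blue) and Abx (red), bars the mean and SD of log2(FPKM + 1), n = 3 per group. Cxcr6 and Ccr2 stand above neighbours that are low or listed at 0.

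The cells also transcribed 1 ligand of these receptors at a high level. Ccl1, the ligand of CCR8, was at 103, 64.4 and 104 FPKM (Con) versus 102, 119 and 44.4 FPKM (Abx), with overlapping groups. It was the only 1 of 13 ligand genes tested, with a difference of -0.11 (standard error 0.42, limma adjusted p = 0.946). Ccl7, a ligand of CCR2, and Ccl21a, a ligand of CCR7, reached 11.2 and 3.51 FPKM in their highest library. The other 10 ligand genes, among them Cxcl16, Cxcl12, Ccl17, Ccl20 and Ccl25, were at no more than 1.69 FPKM in any library.

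Adhesion molecules that act with these receptors were present in both groups. Of 15 genes of adhesion and tissue retention, Klf2 and Cd69 among them, 9 reached 1 FPKM in every library. Itgb7, the beta chain of the gut-homing integrin, led with 143 to 513 FPKM, followed among others by Selplg, the ligand of P-selectin, with 183 to 317 FPKM and Itgb2, the beta chain of LFA-1, with 99.9 to 217 FPKM. Cd44, the hyaluronan receptor, was at 10.5 to 60.4 FPKM and Itgb1, the beta chain of VLA-4, at 1.56 to 47.9 FPKM. Itgae, the alpha chain that pairs with beta 7 in epithelium-resident cells, was at no more than 0.02 FPKM. Of 10 genes tested 0 were called and 0 had an unadjusted p under 0.05 (limma), and the median difference was -0.16. Groups did not overlap for 1 of the 10, Itga4, with Abx above Con, a share near the 8.49% over all genes tested. Itga4, the alpha chain of VLA-4, was at 2.64, 1.82 and 3.23 FPKM (Con) versus 4.33, 4.56 and 11.4 FPKM (Abx). Klf2, a factor that drives S1pr1, was at 6.73, 2.10 and 22.7 FPKM (Con) versus 28.1, 6.79 and 5.09 FPKM (Abx). Cd69, whose protein takes S1PR1 off the surface, was at 3.80, 0.02 and 1.21 FPKM (Con) versus no more than 0.05 FPKM (Abx).

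Among 21 genes of receptor signaling and desensitization, 18 were tested, 0 were called and 3 had an unadjusted p under 0.05 (limma), 2 of them higher and 1 lower in Abx. The median difference was -0.34. Groups did not overlap for 8 of the 18, with Abx higher in 3 and lower in 5, where 8.49% and 8.73% of all genes tested did so and 11% had an unadjusted p under 0.05. Rgs2, a regulator of G protein signaling, was at 29.1, 45.8 and 4.61 FPKM (Con) versus 0, 0.53 and 0.80 FPKM (Abx), a difference of -3.83 (standard error 0.96, limma adjusted p = 0.141). Like Cxcr4, Rgs2 entered the test only through its 3 Con libraries, and a gene that passes in this way has to differ between the groups. Rgs2 was the 1 lower gene counted at that unadjusted p and is among the 5 without overlap and lower in Abx. Sphk1, the kinase that makes sphingosine-1-phosphate, was at 88.6, 93.9 and 38.3 FPKM (Con) versus 335, 161 and 138 FPKM (Abx), a difference of 1.503 (standard error 0.46, limma adjusted p = 0.227). Gnai3, an inhibitory G protein alpha subunit, was at 67.1, 60.9 and 40.7 FPKM (Con) versus 154, 89.4 and 96.7 FPKM (Abx), a difference of 0.99 (standard error 0.33, limma adjusted p = 0.276). Dock2, a guanine nucleotide exchange factor for Rac, was at 7.77, 0.66 and 5.81 FPKM (Con) versus 7.91, 12.8 and 8.53 FPKM (Abx), so the groups were barely apart. The more abundant Gnai2 was at 158 to 173 FPKM (Con) versus 122 to 152 FPKM (Abx). Gnb1, a G protein beta subunit, was at 74.6 to 88.6 FPKM in the controls and 57.1 to 73.2 FPKM after antibiotics, and Rgs1, another regulator of G protein signaling, at 149 to 296 and 108 to 146 FPKM. Rac2, a GTPase of leukocyte migration, was at 474 to 509 FPKM (Con) versus 319.7 to 447 FPKM (Abx).

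**Figure D5:**
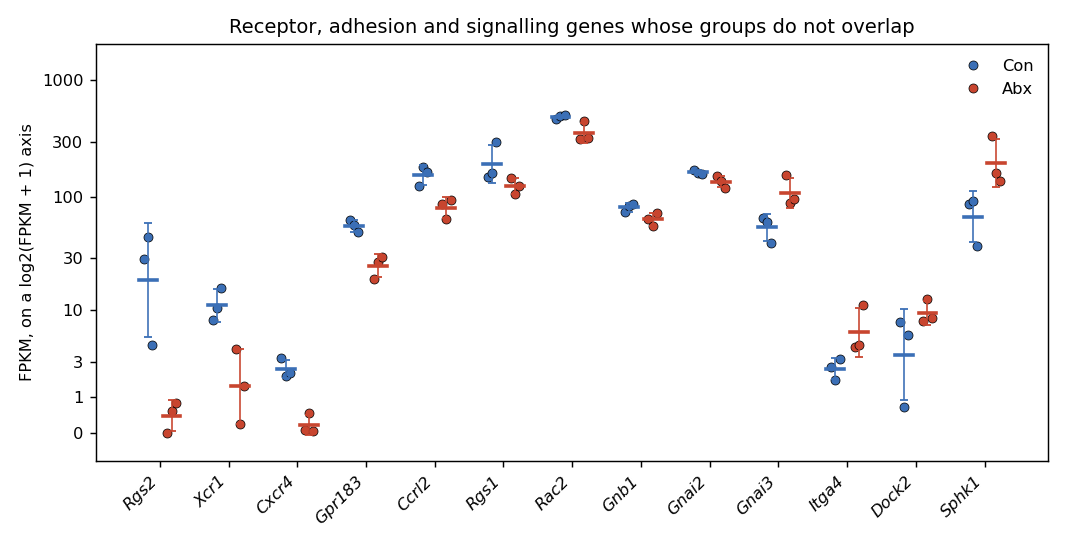
FPKM of the 13 tested receptor, adhesion and signaling genes whose Con (blue) and Abx (red) libraries do not overlap, ordered by the fitted difference, on a log2(FPKM + 1) axis; points are libraries, bars the mean and SD of log2(FPKM + 1), n = 3 per group. Cxcr4 is the only one of the 9 migration receptors among them, and none of the 13 was called. Cxcr4 and Rgs2 entered the test only through their Con libraries.

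The genes whose pattern over the 6 libraries was most like that of the 3 highest receptors were named by Pearson's r of log2(FPKM + 1), as a description. For Ccr8 these were Pcf11 (r = 0.990), 1110028F11Rik (r = 0.966) and Hip1r (r = 0.965). For Cxcr6 they were Zdhhc13 (r = 0.995), Ythdf2 (r = 0.993) and Qsox1 (r = 0.991). For Ccr2 they were Oma1 (r = 0.997), Uap1l1 (r = 0.997) and Reep5 (r = 0.996). In each trio the lowest value of the receptor, that of Abx library 1, went with a low value of the other genes. Reep5, for example, was at 22.9 FPKM in that library and at 54.5 to 76.0 FPKM in the others. The genes named for Ccr8 were low, with Pcf11 at 0.87 to 9.43 FPKM and Hip1r at 0.01 to 3.09 FPKM. 1110028F11Rik was listed at 0 in Con library 1 and in Abx libraries 1 and 3.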

How the data were processed

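SMART-seq libraries of 3 Con and 3 Abx samples were grouped by their titles. The authors removed adapters with Cutadapt, mapped reads with HISAT2 and derived the deposited FPKM values with StringTie. The methods name a human Ensembl release 96 annotation, whereas the identifiers are mouse. The submitters' processing notes name Bowtie 0.12.2, mm8 and mm9. All 9 receptor identifiers carry the same symbols in GENCODE M21 (GRCm38), the source of the coordinates. Receptors and gene lists were chosen with earlier results of these data known. Of each further list, the rule named called genes, tested genes whose groups do not overlap, the 5 with the highest mean FPKM and genes of the chromosome 9 cluster. Of the marker lists, sums stand for the most abundant genes. Il1rl1, Klf2, Cd69, Itgae, Ptgdr2, Cxcr3 and the S1P receptors were added after their values were seen. Some genes are not reported here.

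Differences were tested with limma 3.58.1 in R 4.3.3 (lmFit, eBayes with trend) on log2(FPKM + 1), two-sided, with adjustment over 8718 genes. The scripts were tested on simulated data. The study's DESeq2 step was not repeated because it needs read counts. Of the low values, 26.5% to 30.2% lay within 0.1 of a whole-read step, where 20% would by chance, so whole reads could not be recovered and no counting error is given. The labels number replicates 1 to 3 in both groups, and no source pairs them. Alternatives were pseudocounts of 0.1 and 0.01, quantile normalization, median centring, no filter, a mean of at least 5 FPKM, other eBayes settings, other thresholds, each library left out and a replicate block.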

Additional observations from a re-analysis of the deposited data

How the results depend on the processing

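The count of called receptors was 0 under every alternative except a fold change over 2 with the unadjusted p, which gave 1 (Cxcr4). Over all genes, the 5 calls became 0 with a pseudocount of 0.1 or 0.01, with no filter on low values and with the replicate block, 59 with eBayes without trend, 814 with the unadjusted p, and 0 to 2 with a library left out. With a library left out, between 1 and 3 of the receptors had groups that did not overlap, with Cxcr4 always among them by construction. The share of all genes tested without overlap went from 17.2% with all libraries to between 23.9% and 31.2%. The order of mean levels had 0 to 2 receptors in another place with a library left out, and 2 (S1pr1 and Ccr9) by the median. The fitted difference changed sign for Ccr2 and Cxcr6 without Abx library 1 (0.36 and 0.10) and for Ccr7 without Abx library 3 (0.96). Over all libraries left out, it ranged from -0.62 to 0.36 for Ccr2, from -0.28 to 0.10 for Cxcr6 and from -2.29 to 0.96 for Ccr7. The other 116 of 119 values of the receptors kept their direction and side of the threshold. The adjusted p of Cxcr4 ranged from 0.192 to 0.706 over the alternatives. Libraries with the same replicate number did not deviate together (r from -0.03 to 0.01), and the replicate block changed no call of a receptor. The cause of these shifts was not tested. Depth is unknown, so no counting error can be given for values near 0.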

Other observations

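Chemokines made by the sorted cells were read as a family, a choice made after the data had been seen. The files hold 40 chemokine genes, of which 5 were at 1 FPKM or more in all 6 libraries and 21 were under 1 FPKM in all of them. Cxcl2, which attracts neutrophils, was the highest, at 1286, 1068 and 2048 FPKM (Con) versus 744, 666 and 613 FPKM (Abx). Its difference was -1.07 (standard error 0.26, limma adjusted p = 0.13). Ccl4, which attracts lymphocytes and monocytes, was at 220, 174 and 243 FPKM (Con) versus 17.4, 134 and 0.44 FPKM (Abx), and its groups did not overlap either. Ccl3 was at 266, 101 and 224 FPKM (Con) versus 0.92, 0.58 and 128 FPKM (Abx). Ccl5 ran the other way, at 74.7, 52.5 and 45.3 FPKM (Con) versus 128, 98.9 and 116 FPKM (Abx) (difference 1.001, standard error 0.29, limma adjusted p = 0.190). Of 10 chemokines tested 0 were called and 4 had an unadjusted p under 0.05, namely these 4, where 11% of all genes tested did. For Cxcl2 and Ccl4 every Abx library was below every Con library, and for Ccl5 every one was above, patterns that 8.73% and 8.49% of all genes tested showed.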
